A study of Mus musculus with 2 samples.

Results

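The genes described here are 34 mouse genes for interleukins and other secreted cytokines, chosen by name and matched by gene identifier among the 55536 annotated genes of the tables. All 34 were found, and all are protein coding. They were read in regulatory T cells, the subset of CD4 T cells that holds other lymphocytes in check. Of the 34, 8 (23.5%) reached 1 TPM or more in both libraries and are called expressed: Il16, Ebi3, Csf1, Il10, Ifng, Il18, Il4 and Areg. Another 14 (41.2%) had reads but missed that level in at least 1 library, and 12 (35.3%) had no count in either library.

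The data are RNA-seq of polyadenylated RNA from primary cells of 1 adult male mouse, 4 months old, of the strain Foxp3CreERT2 x Rosa26YFP, sequenced as 2 technical libraries. That strain carries a tamoxifen-inducible Cre recombinase expressed from the Foxp3 gene together with a yellow fluorescent reporter at Rosa26. The labels trace the cells to bone marrow. The sources used here do not give the tissue of isolation, a sort, a stimulation or a tamoxifen treatment. With 1 mouse and 1 group, the libraries carry technical spread only, and no condition is compared. Library 1 held 15821875 estimated counts on genes and library 2 held 16153671. An estimated count divides reads that fit several transcripts among them, and TPM, a level scaled for transcript length and for the library's total, allows genes to be compared, so levels of different genes are compared only in TPM. A count of 0 allows up to 3 counts. This floor and the count intervals given here cover counting error only.

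The labelled cell type had its markers. All 6 regulatory T cell markers and all 6 T cell markers were expressed, with summed levels of 2535 and 2511 TPM and of 6692 and 6921 TPM in libraries 1 and 2. Of 12 monocyte, macrophage and neutrophil markers 1 was expressed, Cd68 at 3.72 and 2.23 TPM. That list summed to 5.8 and 4.46 TPM with Fcgr1, Ly6g, Mpo and Elane at 0. Of 8 dendritic cell markers 3 were expressed, H2-Aa at 11.34 and 8.39 TPM, H2-Ab1 at 4.77 and 6.63 and Zbtb46 at 2.69 and 3.19. The dendritic cell list summed to 19.35 TPM in each library with Itgax at 0. Of 8 B and plasma cell markers 2 were expressed, Cd79b and Cd22, and the list summed to 38.83 and 38.74 TPM, of which Cd79b made up 33.16 and 33.30. None of 9 mast cell, basophil and eosinophil markers was expressed, with a sum of 0.85 and 0.88 TPM and Mcpt8, Fcer1a, Ms4a2, Epx and Prg2 at 0. In RNA from bulk cells, a low level in every cell and a high level in a few cells cannot be told apart.

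Cytokines are small secreted proteins that act on nearby cells through paired receptor chains. Many T cell cytokine genes are nearly silent in resting cells and are switched on for a short time by antigen, and their messenger RNAs often carry AU-rich elements that shorten their lives. Regulatory T cells are known for the inhibitory cytokines interleukin 10 and interleukin 35, for tissue-repair factors such as amphiregulin, and for consuming interleukin 2 that they hardly make.

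Il16 took most of the summed TPM of the 34 members. It encodes a precursor whose carboxy-terminal part is released as interleukin 16, a chemoattractant that binds CD4. The gene (ENSMUSG00000001741.12, mm10 chromosome 7, 83642825 to 83745726, minus strand) stood at 234.34 TPM in library 1 and 227.93 in library 2, which is 231.1 ± 4.53 TPM (SD, n = 2). The counts behind this were 9198 (95% exact Poisson interval 9011 to 9388) and 9354 (9165 to 9546). Il16 ranked 483 among 22028 protein-coding genes by mean TPM. The 34 members summed to 299.2 and 296.2 TPM, and Il16 alone was 78.3% and 77.0% of those sums.

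The reads of Il16 were assigned almost wholly to its short coding transcript. Il16-203, 3183 bases long with 1875 coding bases including the stop codon, held 96.91% of Il16 TPM in library 1 and 97.50% in library 2. Il16-201, the 5260-base transcript with 3969 coding bases, held 1.53% and 1.05%. The retained-intron transcript Il16-204 held 1.56% and 1.45%. The order of these Il16 transcripts was the same in both libraries. In the last 60 bases before the annotated starts, taken from RefSeq (GRCm38.p6), the short and the long transcript have unlike sequences, and they are shown because the reads favour the first. Against the start of the GENCODE transcript, the RefSeq start has an offset of 0 bases for Il16-203 and of -16 bases for Il16-201, where negative is upstream. Capitals would mark TATAAA, the core letters of the TATA box, between 45 and 24 bases before the start, and neither sequence holds it there.
Il16-203 start, chr7:83655496-83655555, minus strand: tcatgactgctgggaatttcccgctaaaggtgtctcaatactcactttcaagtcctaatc
Il16-201 start, chr7:83735540-83735599, minus strand: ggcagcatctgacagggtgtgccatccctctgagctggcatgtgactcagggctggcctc

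The level of Il16 carries a limit from its neighbour. Il16-203 shares 1202 of its exon bases, 37.8%, with Stard5, a lipid-transfer protein gene on the opposite strand. Stard5 was itself given 1297 and 1206 counts. The sources do not say whether the counting used strand, so reads of that stretch from either gene cannot be told apart. In the smaller gene tables, made with the older GENCODE M4 annotation, Il16 had 3170 and 3163 counts, beside 300 and 296 for Ebi3. These counts are not scaled for transcript length, so they do not compare the levels of the genes.

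**Figure D1:**
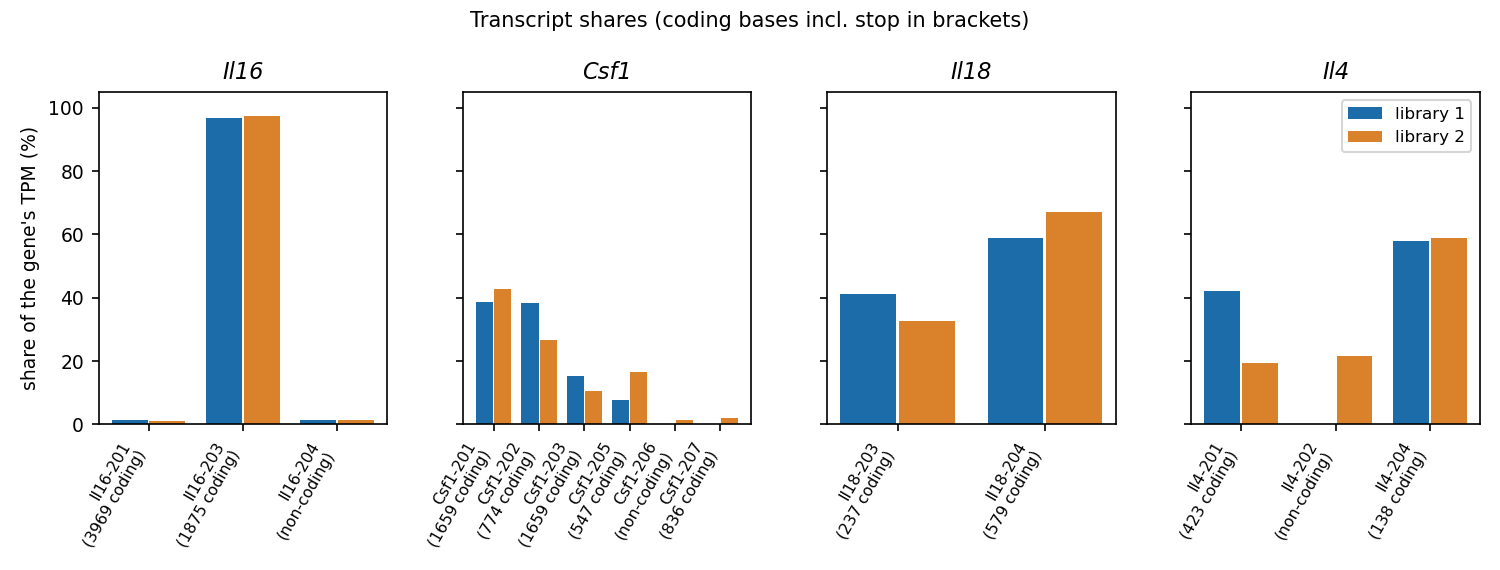
Share of each gene's TPM (%) given to each annotated transcript of Il16, Csf1, Il18 and Il4, with library 1 in blue and library 2 in orange; transcripts with at least 1% in a library are drawn. Il16 has a single leading transcript at 96.91% and 97.50%, whereas Csf1, Il18 and Il4 are each divided among several.

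Among the subunits of the interleukin 12 family, only Ebi3 was expressed. Ebi3 encodes the beta subunit that pairs with the Il12a product in interleukin 35 and with the Il27 product in interleukin 27. It was at 36.63 TPM in library 1 and 36.14 in library 2, from 503 and 521 counts (ENSMUSG00000003206.7, chromosome 17, 55952640 to 55957022, plus strand). Il12a and Il27 had no count in either library, and neither did Il12b, the subunit shared by interleukins 12 and 23. Against the level that 3 counts of Il12a would give, Ebi3 was 159.3-fold higher in library 1 and 165.0-fold in library 2. Against the level of 3 counts of Il27 it was 147.7-fold and 152.5-fold higher. Il23a, the partner of Il12b, had 0 and 1 counts, and the single read went to a retained-intron transcript. Of the exon bases of Ebi3, 270 (23.4%) overlap Gm16712 on the opposite strand, which was given 79 and 107 counts. The receptor chains of this family were present in part: Il27ra was at 196.69 and 194.21 TPM and Il6st at 54.64 and 39.30, whereas Il12rb2 was at 0.15 and 0.11.

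Il10 was the highest of the interleukin 10 family and the only expressed cytokine gene of its cluster. It encodes interleukin 10, which restrains macrophages and dendritic cells. It stood at 4.53 and 4.38 TPM in libraries 1 and 2, from 71 and 72 counts (ENSMUSG00000016529.5, chromosome 1, 131019845 to 131024974, plus strand). Its relatives Il24 and Il19 lie within the same 142.9 kb. Il24 had 0 and 2 counts, and Il19, like the cluster's Il20, had none. Il22, another relative with a role at epithelial barriers, had no count, although 41.0% of its 50-base windows also occur in the similar gene Iltifb, which had none either. Both chains of the interleukin 10 receptor were expressed, Il10ra at 31.23 and 28.82 TPM and Il10rb at 94.47 and 97.30. For the receptors of Il19, Il22 and Il24, the chains Il20ra at 0.08 and 0.00 TPM and Il22ra1 without a count were not.

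Helper T cell cytokines were sparse. Ifng, which encodes interferon gamma and arms macrophages, was at 4.22 and 4.08 TPM from 61 and 62 counts (ENSMUSG00000055170.4, chromosome 10, 118441046 to 118445892, plus strand). Its counts lie within each other's Poisson intervals and within those of Il10, so the order of these neighbours is not resolved by counting. Of 8 CD8 T and NK cell markers 5 were expressed, and the list summed to 25.06 and 27.34 TPM. Cd8b1 was at 10.79 and 14.34 TPM, Prf1 at 5.79 and 5.03 and Gzma at 3.98 and 3.61. Cd8a was at 2.18 and 1.82 TPM and Klrb1c at 1.97 and 1.85, whereas Ncr1 had 1 and 0 counts. The part of CD8 T and NK cells in the Ifng level was not tested. Il4, the inducer of type 2 responses, was at 2.49 and 2.28 TPM from 17 and 16 counts (ENSMUSG00000000869.12, chromosome 11, 53602982 to 53618669, minus strand). Basophils and mast cells are other known sources of interleukin 4. Of their markers, Kit had 42 and 25 counts and Cpa3 1 and 7, beside the markers at 0 given above, and their part in the Il4 level was not tested.

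The type 2 locus showed reads of Il4 and almost none of its partners. Il13, which acts on epithelium and smooth muscle, had 0 and 1 counts, and Il5, the eosinophil growth factor, had 1 and 0. These 3 genes lie within 122.1 kb of chromosome 11. Rad50, a DNA repair gene set between Il13 and Il5, was at 35.53 and 37.66 TPM. Irf1, an interferon-response factor gene just beyond Il5, was at 236.98 and 230.34 TPM. The Il4 reads were not all of the full coding transcript: Il4-204, with 138 coding bases, was given 57.92% and 58.95% of Il4 TPM, and Il4-201, with 423, was given 42.08% and 19.40%. With 17 and 16 counts these shares rest on few reads.

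Il17a, the neutrophil-recruiting cytokine of Th17 cells, had no count, and its neighbour Il17f had 1 and 3. Il22 and Il3 had none, and Csf2, the granulocyte-macrophage growth factor next to Il3, had 5 and 9 counts, or 0.54 and 0.92 TPM. Il9, a mast cell growth factor, and Il25, an epithelial inducer of type 2 responses, had no count. Genes of factors that direct helper T cell programmes were present. Gata3, the type 2 factor, was at 110.57 and 101.48 TPM, and Tbx21, the type 1 factor, at 2.04 and 1.64. Maf and Batf, factors of activated T cells that act at several cytokine genes, were at 63.61 and 62.28 TPM and at 122.47 and 120.32 TPM. Of 20 listed regulators of cytokine genes, 19 were expressed and Eomes was at 0.26 and 0.40 TPM.

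Of the cytokines that signal through the Il2rg product, Il4 was expressed as given above and Il9 had no count, while Il2, Il7, Il15 and Il21 were low beside their receptor chains. Il2, the T cell growth factor, was at 0.59 and 0.75 TPM from 8 and 11 counts (ENSMUSG00000027720.7, chromosome 3, 37120523 to 37125959, minus strand). Of the Il2 windows, cut to the same length as those of Il22, 12.6% also occur in the gene Ntan1. The smaller M4 tables gave Il2 0 and 1 counts in libraries 1 and 2. Whether reads of Ntan1 entered the Il2 counts was not tested. Il21, a helper cytokine for B cells that lies with Il2 in 112.1 kb, was at 0.49 and 0.38 TPM. Il15, a survival factor for memory T cells and NK cells, was at 0.17 and 0.70 TPM, and Il7, a survival factor made by stroma, at 0.45 and 0.06. By contrast Il2rg itself stood at 1484.52 and 1488.16 TPM. Il2rb was at 426.33 and 393.58 TPM, Il7r at 200.22 and 208.96, Il21r at 61.64 and 74.01, Il15ra at 22.97 and 17.81 and Il9r at 5.57 and 4.33.

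Of the 5 interleukin 1 family members described here, Il18 was the expressed one. Il18 encodes a precursor that caspase 1 cuts, and the released cytokine promotes interferon gamma production. It had 22 counts in library 1 and 59 in library 2, or 2.15 and 5.52 TPM (ENSMUSG00000039217.13, chromosome 9, 50554827 to 50581840, plus strand). Library 2 was the higher, and the Poisson intervals of 13.8 to 33.3 and 44.9 to 76.1 do not overlap. Il18-204, with 579 coding bases, took 58.83% and 67.21% of its TPM. Il1rn, the natural antagonist of interleukin 1, was just under the threshold in library 1, at 0.95 TPM, and over it in library 2, at 1.43. Il1b, the fever-inducing cytokine, had 0 and 4 counts. Il1a and Il33, alarm signals of damaged cells, had none, but the smaller M4 tables gave Il1a 1 and 3 counts.

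Genes for releasing these cytokines were expressed more widely than the cytokines. Of 16 listed genes of cytokine processing and release, 14 were expressed, among them Casp1 at 72.04 and 72.88 TPM, the adaptor Pycard at 184.93 and 193.52 and the pore-forming Gsdmd at 68.77 and 65.31. Nlrp3, an inflammasome sensor, had no count, and Nlrp1a was at 0.50 and 0.13 TPM. Il18bp, the secreted trap for interleukin 18, was at 4.99 and 4.21 TPM. Both interleukin 18 receptor chains were expressed, Il18r1 at 36.47 and 34.03 TPM and Il18rap at 7.75 and 6.64. Il1r1, the signalling receptor of interleukin 1, was at 0.00 and 0.03 TPM, whereas the decoy receptor Il1r2 was at 88.48 and 77.63 TPM.

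Among growth factors, Csf1 was expressed and Areg passed narrowly. Csf1, the macrophage growth factor, was at 9.86 and 8.88 TPM from 382 and 342 counts (ENSMUSG00000014599.10, chromosome 3, 107741048 to 107760469, minus strand). Its TPM was divided mainly between Csf1-201, with 1659 coding bases, at 38.57% and 42.80%, and Csf1-202, with 774, at 38.42% and 26.71%. Areg encodes amphiregulin, an epidermal growth factor receptor ligand of tissue repair, and stood at 1.52 and 1.78 TPM from 22 and 27 counts (ENSMUSG00000029378.5, chromosome 5, 91139599 to 91148432, plus strand). Adam17, the sheddase that releases amphiregulin, was at 36.41 and 37.70 TPM. The receptor genes of these ligands were not expressed, with Csf1r at 0.76 and 0.44 TPM and Egfr at 0.02 and 0.14. Il34, the second ligand of the Csf1r product, had no count. Il6 and Il11 encode cytokines that share the Il6st chain. Il6 had 1 and 3 counts, and Il11 had 0 and 3.

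Against all genes, the members were sparse. Of 22028 protein-coding genes, 10251 (46.5%) were expressed and 5760 (26.1%) had no count, beside 23.5% and 35.3% of the members. The median member stood at 0.025 TPM in library 1 and 0.11 in library 2, and the median protein-coding gene at 0.64 and 0.615. For the 12 members without counts, 3 counts would have been worth 0.125 to 0.495 TPM in library 1 and 0.12 to 0.472 in library 2. With the floor of 3 counts, a count of 0 is taken to allow levels up to those values. Of 27 further secreted cytokine genes found by symbol, 9 were expressed, led by Mif at 337.84 and 361.04 TPM, Flt3l at 73.03 and 66.16, Lta at 54.86 and 61.52 and Clcf1 at 21.05 and 26.03, and 10 had no count. No test was made on these lists, and the shares are descriptions.

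**Figure D2:**
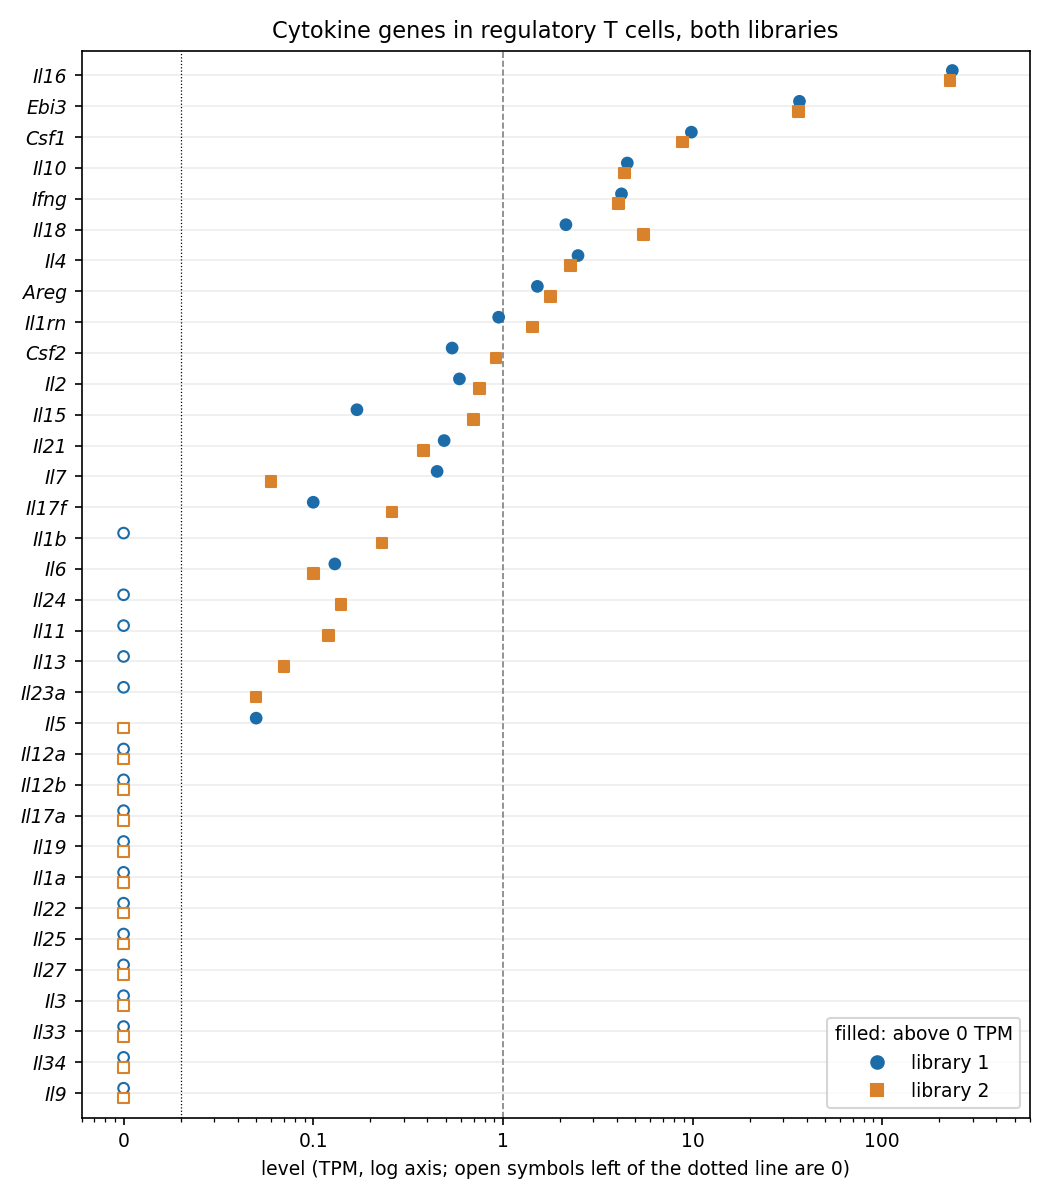
Level of each of the 34 cytokine genes (TPM, log axis) in library 1 (blue circles) and library 2 (orange squares), ordered by mean; open symbols left of the dotted line are 0 and the dashed line is 1 TPM. Il16 lies at 234.34 and 227.93 TPM, 8 genes lie at or right of the dashed line in both libraries, and 12 have only open symbols.

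Receptor chains were expressed for many cytokines that the cells did not express. Of 41 listed chains, 27 were expressed, with a median of 7.69 TPM over the list, and Il13ra2 and Il22ra1 had no count. All the listed chains were expressed for 15 of the 34 members: 5 of the 8 expressed members, 6 of the 14 low ones and 4 of the 12 without counts. The last 4 were Il9, Il25, Il27 and Il33. For 7 members no listed chain was expressed, and among these were the expressed genes Csf1 and Areg. The pairing of cytokines with chains was written after the levels were known, and the counts depend on the chains listed. Il4 fell short only by Il13ra1, at 1.34 and 0.63 TPM, while Il4ra was at 81.65 and 76.11 and Il2rg at 1484.52 and 1488.16. Without Il13ra1 on its list, Il4 would have been counted with all its chains expressed. Ebi3 was counted with all its chains expressed because Il12rb2, at 0.15 and 0.11 TPM, was not listed for it. For Il16 the receptor gene Cd4 stood at 226.30 and 199.34 TPM, close to the level of Il16 itself.

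**Figure D3:**
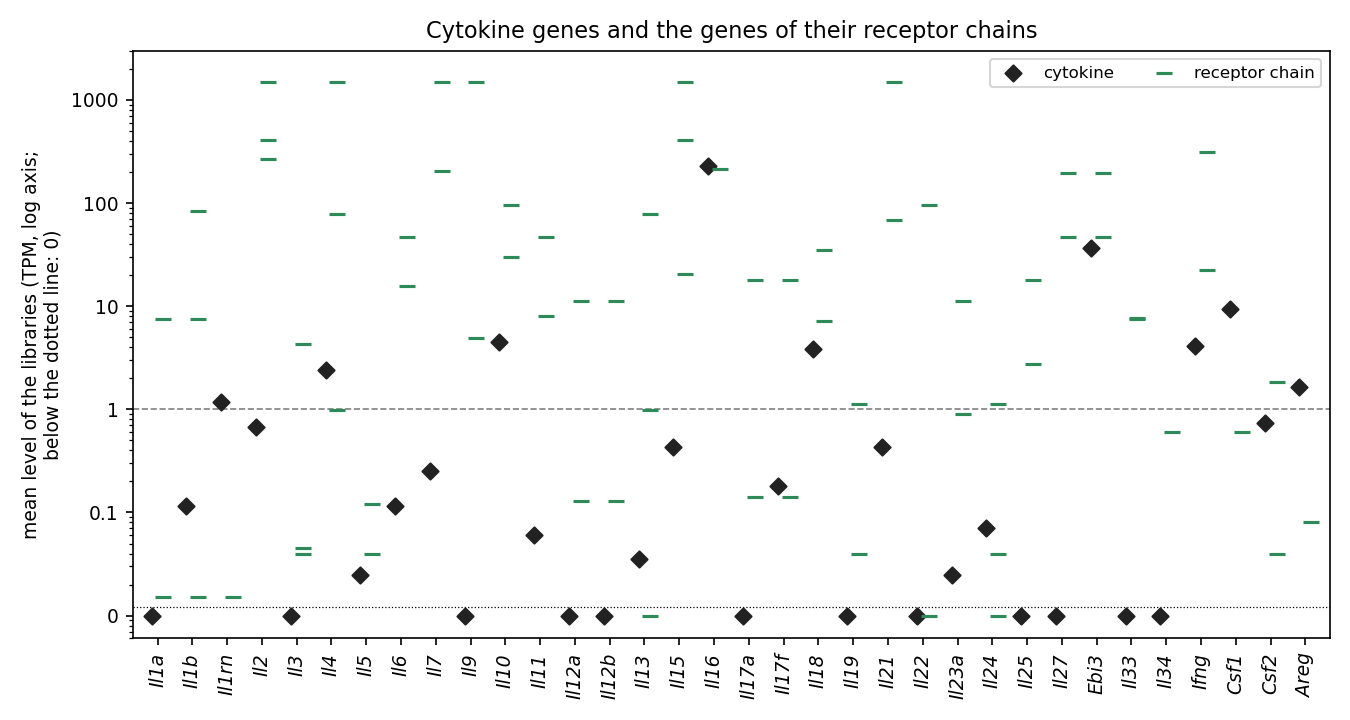
Mean TPM of both libraries (log axis) of each cytokine gene (black diamonds) and of the genes of its receptor chains (green bars); the dashed line is 1 TPM and symbols under the dotted line are 0. Il2, Il7, Il15 and Il21 lie under the dashed line beneath chains that include Il2rg at 1486 TPM, whereas Csf1 and Areg lie above chains under 1 TPM.

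Each gene's rounded counts in the libraries were set against each other by a two-sided exact binomial test, with Benjamini-Hochberg adjustment over the 17458 genes whose counts summed to at least 10. This compares 2 libraries of the same cells, not conditions, and it takes reads as independent. The test called 25.1% of all genes different, and 2 of the 14 members tested. With the common dispersion of edgeR, a coefficient of variation of 13% estimated from the same libraries, its exact test called 2.1% of all genes and 0 members. The median absolute log2 ratio was 0.23 over the members tested and 0.22 over all genes tested.

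Il18 was higher in library 2, by 1.37 on the log2 scale, a 2.59-fold ratio (95% interval 1.58 to 4.5; adjusted p = 0.000612 by the exact binomial test). By the edgeR exact test the adjusted p was 0.0789. In the smaller M4 tables Il18 had 19 and 39 counts, a log2 ratio of 1.03 with adjusted p = 0.0696 by the exact binomial test. Beside this, the myeloid markers summed to 5.8 and 4.46 TPM and the dendritic cell markers to 19.35 in each library. Single markers moved either way. Adgre1 was at 5 and 12 counts, Siglech at 11 and 24 and H2-Ab1 at 69 and 98. In the other direction, Csf1r was at 44 and 12 counts, Cd68 at 46 and 32 and H2-Aa at 153 and 118. The part of these markers in the Il18 values was not tested.

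Il7 was lower in library 2. Its 11 counts in library 1 and 1 in library 2 gave a ratio of 0.13 (95% interval 0.00207 to 0.612), with an adjusted p of 0.0169 by the exact binomial test and 0.196 by the edgeR exact test. The M4 tables gave Il7 3 and 1 counts. The stroma, endothelium and epithelium markers summed to 4.57 and 2.95 TPM, of which Epcam made up 4.08 and 2.71, and their part in the Il7 values was not tested.

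The most abundant members differed little. Il16 had a log2 ratio of -0.01 (fold 95% interval 0.967 to 1.02), Ebi3 of 0.02 (0.895 to 1.15) and Csf1 of -0.19 (0.755 to 1.02; adjusted p = 0.203 by the exact binomial test). For Csf2, with 5 and 9 counts, the fold interval ran from 0.53 to 6.69, a span that this depth cannot narrow.

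**Figure D4:**
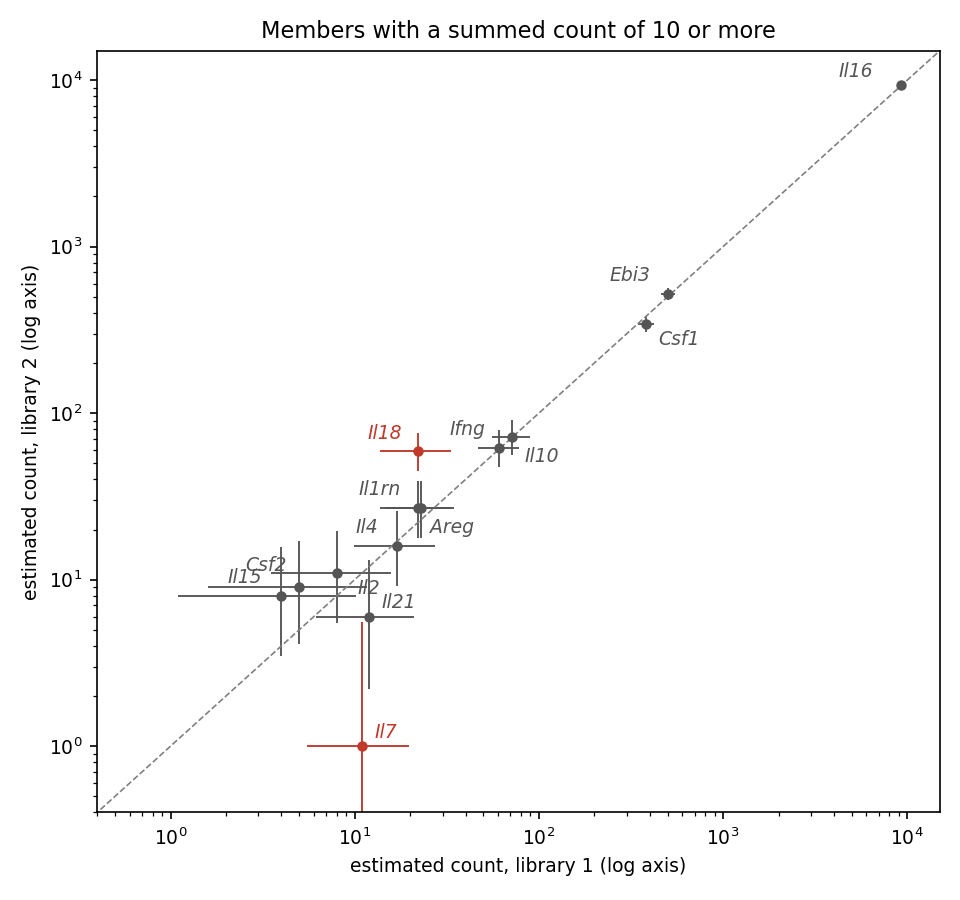
Estimated counts (rounded, log axes) of the 14 cytokine genes whose counts summed to at least 10, library 1 against library 2, with 95% exact Poisson intervals as bars and the dashed line of equal counts; red marks an adjusted p under 0.05 by the exact binomial test. Il18 at 22 and 59 counts lies above the line and Il7 at 11 and 1 below it, whereas Il16, Ebi3 and Csf1 lie on or near it.

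The promoters of the members were read from RefSeq windows (GRCm38.p6), of which 34 were found for 26 members. Il7, Il10, Il15, Il23a, Il24, Il25, Il27 and Il34 had no window. TATAAA was searched on the sense strand, starting 45 to 24 bases before the start. It was in 9 of the 34 member windows (26.5%) and in 684 of all 32851 windows (2.08%), and the 9 lie at 9 different genes. By level class, it was in 2 of 10 windows of expressed members (20%), in 4 of 13 of low members (30.8%) and in 3 of 11 of members without counts (27.3%). The last 60 bases before the start are printed for 2 expressed members with the motif, 3 members with it that were low or without counts, and 2 expressed members without it, with TATAAA in capitals. Among those printed, the offset from the GENCODE start is -17 bases for Ebi3, 5 for Il2 and 0 for the others, where negative is upstream. Of the windows counted but not printed, those of Csf2 and Il18 have offsets of -232 and -127 bases. Both counted as without the motif, and the bases just before their GENCODE starts were not searched for it.
Ifng, chr10:118440986-118441045, plus strand: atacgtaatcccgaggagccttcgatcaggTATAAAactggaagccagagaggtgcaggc
Areg, chr5:91139539-91139598, plus strand: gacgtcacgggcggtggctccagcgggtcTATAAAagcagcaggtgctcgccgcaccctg
Il2, chr3:37125955-37126014, minus strand: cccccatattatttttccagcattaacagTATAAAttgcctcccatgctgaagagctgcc
Il1b, chr2:129371140-129371199, minus strand: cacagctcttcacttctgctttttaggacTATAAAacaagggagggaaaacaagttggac
Il17a, chr1:20730845-20730904, plus strand: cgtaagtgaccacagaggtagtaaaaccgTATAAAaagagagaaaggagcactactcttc
Ebi3, chr17:55952563-55952622, plus strand: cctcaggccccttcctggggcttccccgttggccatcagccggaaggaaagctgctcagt
Csf1, chr3:107760470-107760529, minus strand: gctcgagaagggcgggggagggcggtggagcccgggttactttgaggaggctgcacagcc

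The motif TGANTCA, with any letter at N, takes in sites of AP-1 factors but is wider than them. It is equal on both strands apart from N. Searched over the 250 bases before the start, it was in 7 of the 34 member windows (20.6%) and in 6.75% of all windows. The member windows held a median of 3 CpG in those 250 bases, and all windows held 6. A match of letters is a description and no measurement of binding.

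At the other end of the messenger RNA, most members carried TATTTAT in the 3′ untranslated region, the core heptamer of AU-rich elements bound by the Zfp36 family, which promotes decay. It was searched on the transcript strand, overlaps included, in 1 main coding transcript per gene. Of the 34 members, 24 (70.6%) held it at least once, beside 26.1% of 20761 protein-coding genes and 27.9% of the expressed ones. For 2 or more copies the shares were 52.9% and 9.6%. Csf2 held 9 copies in 317 bases, Il11 6, Il12a and Il23a 5 each, and Ifng, Il10, Il22 and Il27 4 each. The first site of 5 members is printed with 9 bases on each side and the heptamer in capitals, to show the AU-rich setting in Csf2 and Il4 beside the single site of Csf1.
Csf2: ggaccattaTATTTATttatatatt
Ifng: atctaaaccTATTTATtaatattta
Il10: tctccgaaaTATTTATtacctctga
Il4: tatttttaaTATTTATatatttata
Csf1: tactgccacTATTTATtgtgggccc

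The 8 expressed members differed in these heptamers. Il16 and Ebi3, the highest by TPM, held none in 3′ untranslated regions of 1064 and 245 bases, Csf1 held 1 in 2111, and Il18 held none in 123. The leading transcript Il16-203 held none in its 1041 bases. The other 4 expressed members held them: Il10 and Ifng 4 each, Il4 2 and Areg 1. Across the classes, 5 of 8 expressed members (62.5%), 11 of 14 low members (78.6%) and 8 of 12 without counts (66.7%) held at least 1. The genes for the proteins that bind the element were expressed, Zfp36 at 115.58 and 115.98 TPM, Zfp36l1 at 110.26 and 103.15 and Zfp36l2 at 57.48 and 58.83. Decay itself was not measured.

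**Figure D5:**
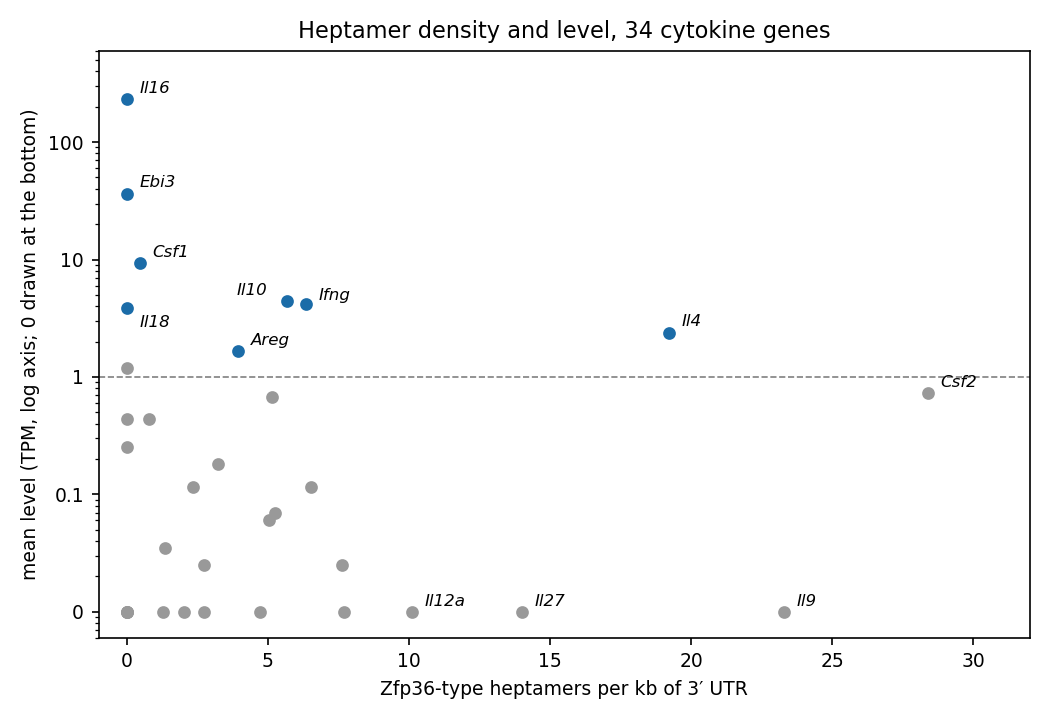
Mean TPM of both libraries (log axis, 0 drawn at the bottom) against the number of Zfp36-type heptamers per kb of 3′ untranslated region for the 34 cytokine genes; blue marks the 8 expressed genes and the dashed line is 1 TPM. Il16 and Ebi3, the highest genes, lie at 0 heptamers per kb, and Csf2 lies farthest right at 28.4.

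The 34 genes hold 7 clusters in which members lie within 300 kb of each other, and expressed neighbours within 100 kb were common in some and rare in others. In the Il17a and Il17f cluster both neighbours were expressed, Mcm3, a replication factor gene, at 34.28 and 34.43 TPM. In the Il1a and Il1b cluster 2 of 3 neighbours were expressed, led by the phosphate transporter gene Slc20a1 at 65.81 and 70.41 TPM. In the Il4, Il13 and Il5 cluster 5 of 6 neighbours were expressed. The Il24, Il19 and Il10 cluster had 2 of 5 expressed and the Il2 and Il21 cluster 2 of 4. In the Il22 and Ifng cluster 1 of 10 was, and beside Csf2 and Il3 the single neighbour Acsl6 had no count.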

How the data were processed

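Members, gene lists and tests were chosen with earlier results of these data known. Per the file headers, the authors' larger tables (GENCODE M21, mm10) hold estimated counts without scaling, and TPM and FPKM scaled by the authors. The percent of a gene's TPM per transcript was used as deposited. The smaller tables, deposited with GENCODE M4, hold whole-number counts. The sources used here give no aligner, strand setting or software version. The deposited posterior intervals of TPM were not used, since they left out the deposited TPM of some members. Symbols, positions and transcripts came from GENCODE M21, joined by identifier.

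Every member is named, and of each list the members named are examples. Library sizes were scaled by TMM in edgeR 4.0.16 (R 4.3.3). The test was checked on simulated counts with known changes. Those counts held counting error only, so the check could not show false calls that come from spread beyond it. Log2 ratios carry a prior count of 0.5. DESeq2 1.42.0 size factors, other filters, count tables and TPM definitions were alternatives. Python 3.11.15, pandas 2.3.3 and scipy 1.17.1 were used. The library test fits counting error only, since 1 library a side leaves no spread to estimate per gene.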

Additional observations from a re-analysis of the deposited data

How the results depend on the processing

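The number of expressed members was 8 and stayed between 8 and 11 under 7 alternatives and from 8 to 9 with either library left out, but was 3 at 5 TPM or more, a stricter threshold. The 12 members without counts became 10 and 13 with posterior mean counts and M4 counts, and 13 to 17 with 1 library left out. The M4 counts also changed which members these were. Il1a and Il34 had M4 counts, whereas Il11, Il13 and Il23a, which are low members, had none. The 2 members called between libraries became 1 with a summed count of 50 or more, where fewer genes are tested, 0 with the edgeR common dispersion and 0 in the M4 tables, where 9 members were tested; the cause of the last was not tested. Leaving out a library could not be done for that comparison. Il16-203 held 97.2% of Il16 TPM, 97.0% of posterior mean TPM and 96.6% of estimated counts, and 96.9 to 97.5% with 1 library left out; these alternatives, and 2 searches of sequence that moved no count, were added after seeing the data. Rescaling over protein-coding genes raised the level of each expressed member 1.24 times, and scaling by merged exon length moved them 0.78 (Il16) to 1.86 times (Il10). No paired analysis was possible because the libraries form 1 group. Members under about 10 counts are limited by depth.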
